A study of Mus musculus with 4 samples.

Results

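Among CD4 T cells whose receptor uses the β-chain V gene TRBV26, which encodes Vβ3, some carried a β-chain CDR3 that was found in both mice of the study, called shared here, and the rest carried one found in a single mouse, called private. The CDR3 is the loop of the receptor that spans the joins between the V, D and J segments. A CDR3 was shared when its amino acid sequence occurred in TRBV26 cells of mouse 1 and of mouse 2. Shared CDR3s were carried by 205 cells of mouse 1 and 187 cells of mouse 2, and private ones by 1879 and 1773 cells. They belonged to 4044 TRBV26 cells among 12325 kept cells in all.

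Both mice were NOD.Rag1null hosts, which have no T or B cells of their own. Each received 5000000 column-purified CD4 T cells from the spleens of B6.H2g7 donors aged 6 to 8 weeks, C57BL/6 mice with the major histocompatibility haplotype of NOD mice (strain B6.NOD-(D17Mit21-D17Mit10)/LtJ), and live CD4 T cells, stained for CD4 and the receptor β chain, were sorted from each host's spleen on day 14. The labels name a pair of donors and do not say whether their cells were pooled before transfer. From each host 1 gene expression and 1 receptor library were made with the 10x 5′ method, so every comparison is between classes of cells from the same 2 hosts, and differences between donors cannot be told apart from differences between hosts. A cell was kept if it had 500 or more detected genes, 10% or fewer mitochondrial UMIs (unique molecular identifiers, each standing for 1 captured RNA molecule), exactly 1 TRB chain and at most 2 TRA chains. The classes were of like depth, with medians of 5265 and 6373 UMIs per shared cell in mouse 1 and mouse 2 and 5420 and 6259 per private cell. Transcripts that define T cells were present in both classes: Cd3e had 1510 and 1440 CPM (counts per 1000000 counts of the sum) in shared cells and 1495 and 1530 CPM in private cells, and Cd4 had 405 and 452 CPM in shared cells and 419 and 453 CPM in private cells.

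A T cell receptor β chain is made in the thymus by joining a V, a D and a J segment. Enzymes trim the ends of the segments and add bases that no segment encodes, so the join differs from cell to cell. A CDR3 that appears in several individuals is often called public, and such CDR3s are known for short joins with few added bases and for being encoded by several different nucleotide sequences. Superantigens of mouse mammary tumour viruses, the subject of the series, bind the β chain mainly through its V segment rather than through the CDR3.

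The segments lie on the plus strand of chromosome 6. In GRCm38, Trbv26 (ENSMUSG00000076479) is at chr6:41227505-41227993, Trbd1 (ENSMUSG00000095668) at chr6:41533201-41533212 and Trbj1-3 (ENSMUSG00000076485) at chr6:41534323-41534376. The parts of the 3 segments that can enter a CDR3, from GENCODE M21 transcripts, are given first, because the joins below were read against them.
Trbv26 end: tgtgccagcagtctgtc
Trbd1: gggacagggggc
Trbj1-3 start: ttctggaaatacgctctatttt
The shared CDR3 with the most nucleotide sequences is shown because it illustrates how the same 14 residues were reached by different joins. It used TRBJ1-3 and was found in 3 cells of mouse 1 and 9 cells of mouse 2. Capitals mark the junction bases, that is the bases matched neither to the end of the V segment nor to the start of the J segment.
mouse 1, 2 cells: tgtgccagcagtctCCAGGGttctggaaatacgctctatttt
mouse 1, 1 cell: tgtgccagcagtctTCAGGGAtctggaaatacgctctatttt
mouse 2, 5 cells: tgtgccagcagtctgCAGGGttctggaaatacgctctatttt
mouse 2, 2 cells: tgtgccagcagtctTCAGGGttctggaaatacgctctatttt
mouse 2, 1 cell: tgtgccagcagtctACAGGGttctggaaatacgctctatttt
mouse 2, 1 cell: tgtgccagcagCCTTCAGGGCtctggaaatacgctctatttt
The 6 sequences had between 5 and 10 junction bases, of which 5 or 6 matched a D segment. None of them occurred in both mice.
The next pair is shown for contrast, as the largest of the nucleotide sequences that did occur in both mice together with the same TRA nucleotide sequence.
TRBJ1-4, 10 cells of mouse 1 and 1 cell of mouse 2: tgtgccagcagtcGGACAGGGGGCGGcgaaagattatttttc
TRBJ1-3, 3 cells of mouse 1 and 1 cell of mouse 2: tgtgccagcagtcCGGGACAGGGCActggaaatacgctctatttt
Their joins held 13 and 12 junction bases. The largest private CDR3 of each mouse, given last, came from a single nucleotide sequence.
TRBJ2-4, 36 cells of mouse 1: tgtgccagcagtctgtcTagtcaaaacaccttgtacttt
TRBJ2-5, 59 cells of mouse 2: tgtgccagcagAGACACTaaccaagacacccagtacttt
These private sequences had 1 and 7 junction bases, none of them in a D match, so a join with few junction bases was not always shared.

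The shared class was of like size in the 2 mice. It made up 9.84% of the TRBV26 cells of mouse 1 (95% exact Clopper-Pearson interval 8.59 to 11.2) and 9.54% of those of mouse 2 (8.28 to 10.9). The mean was 9.69% ± 0.209 (SD, n = 2 mice). By clonotype, meaning cells of 1 mouse with the same TRBV, TRBJ and TRB CDR3 nucleotides, 136 of 1446 were shared in mouse 1 and 140 of 1426 in mouse 2. By distinct CDR3 there were 119 shared among 1387 in mouse 1 (8.58%) and among 1376 in mouse 2 (8.65%). The number of shared CDR3s is the same in the 2 mice by construction. Intervals here and below cover counting error only.

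Most shared CDR3s were rare in both mice. Of the 119, 58 were seen in 1 cell of each mouse, 14 in at least 2 cells of each and 0 in at least 5 cells of each. The median was 3 cells over both mice and the highest 12 cells. Each of the 119 used 1 J gene, and none was found with more than 1.

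The amino acid sequence was usually reached by different nucleotides in the 2 mice. No nucleotide sequence in common was found for 90 of the 119 shared CDR3s (75.6%), and 29 had 1. Over both mice, 17 shared CDR3s had 1 nucleotide sequence, 83 had 2, 15 had 3, and 4 had between 4 and 6. Since a shared CDR3 is drawn from at least 2 clonotypes by the rule, the number of sequences within 1 mouse is the measure that does not follow from it. There, 2 or more nucleotide sequences were found for 13.4% of shared CDR3s in mouse 1 (interval 7.88 to 20.9) and 13.4% in mouse 2, against 2.92% (2.06 to 3.9998) and 2.31% (1.55 to 3.30) of private CDR3s. The mean was 1.16 ± 0.0238 sequences per shared CDR3 and 1.03 ± 0.00711 per private CDR3 (SD, n = 2 mice).

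The partner α chain mostly differed between mice. Of the 119 shared CDR3s, 113 had a TRA chain in both mice, and for 103 of these no TRA chain, taken as the same V gene, J gene and CDR3 amino acids, was in common. A TRAV gene was in common for 14. The remaining 10 had a TRA chain that was identical in both mice in its nucleotides as well. They made up 12 pairs of TRB and TRA nucleotide sequences, carried by 22 cells of mouse 1 and 11 cells of mouse 2. Such pairs were not limited to TRBV26: cells with other V genes held 27 pairs from 24 TRB sequences over 12 V genes, 3 of those sequences with TRBV23. Whether these pairs come from 1 donor clone that reached both hosts or from transfer of molecules between libraries was not tested. Of the cell barcodes, 58 occurred among the kept cells of both mice and 9 among their TRBV26 cells, and 0 of those 9 carried the same CDR3 nucleotides. Among the 29 nucleotide sequences in both mice, the 10 with the α chain in common had a mean of 8.70 junction bases and the other 19 had 7.74, against 7.41 for the 218 sequences of shared CDR3s that were found in 1 mouse.

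**Figure D1:**
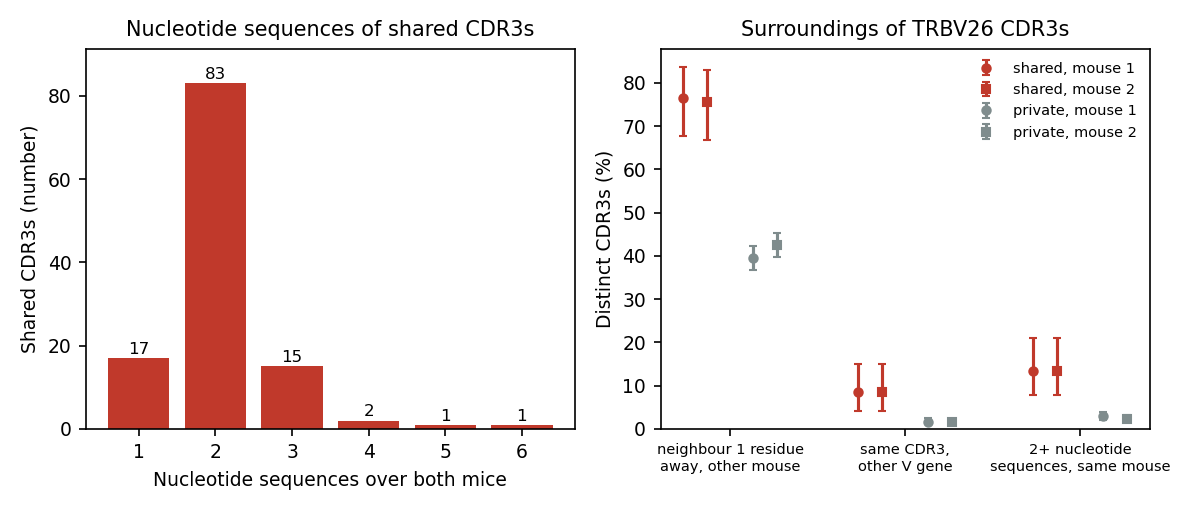
Left, the number of shared TRBV26 CDR3s by how many nucleotide sequences encoded them over both mice, with 83 of 119 at 2 sequences. Right, the percentage of distinct CDR3s, shared (red) and private (grey), with a CDR3 1 residue away in the other mouse, with the same CDR3 in cells of another V gene, or with at least 2 nucleotide sequences in the same mouse; bars are exact 95% intervals, and the shared values lie above the private ones for all 3.

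Shared CDR3s had shorter joins. Clonotypes with a shared CDR3 had a mean of 7.57 junction bases in mouse 1 and 7.53 in mouse 2, against 9.55 and 9.53 in clonotypes with a private CDR3. The medians were 7 in the shared class and 9 in the private class in both mice. The difference, shared minus private, was -1.98 and -1.998 bases, a mean of -1.99 ± 0.0118 (SD, n = 2 mice). On average shared joins had 4.34 bases matched to a D segment and 3.21 outside it, and private joins had 5.29 and 4.25. A D match under 5 bases was not counted, and Trbd2 was searched only in joins with TRBJ2 genes. These averages are therefore not separate measures of a shorter join. The segment ends were longer, with 13.9 bases matched to Trbv26 and 19.3 to the J segment in shared clonotypes, and 13.6 and 18.5 in private ones. A join with no base outside the D match was found in 11.8% (interval 6.88 to 18.4) and 15% (9.53 to 22.0) of shared clonotypes, against 5.42% (4.26 to 6.79) and 4.98% (3.85 to 6.31) of private ones. With 2 mice, a permutation of the class labels within mice cannot give a two-sided exact p under 0.5, so none of the receptor measures has a test over mice. The shared class also holds the same CDR3s in both mice, so that its lengths and J genes in mouse 1 and mouse 2 are not separate observations.

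Read the other way, the percentage of clonotypes with a shared CDR3 depended on the size of the join. It was 14.7% in mouse 1 and 21.7% in mouse 2 at 3 to 5 junction bases, 13.8% and 12.7% at 6 to 8, 6.54% and 8.35% at 9 to 11, and 3.82% and 3.56% at 12 to 14. At 0 to 2 junction bases the mice differed, with 7 of 16 clonotypes shared in mouse 1 (43.8%, interval 19.8 to 70.1) and 3 of 33 in mouse 2 (9.09%, 1.92 to 24.3).

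**Figure D2:**
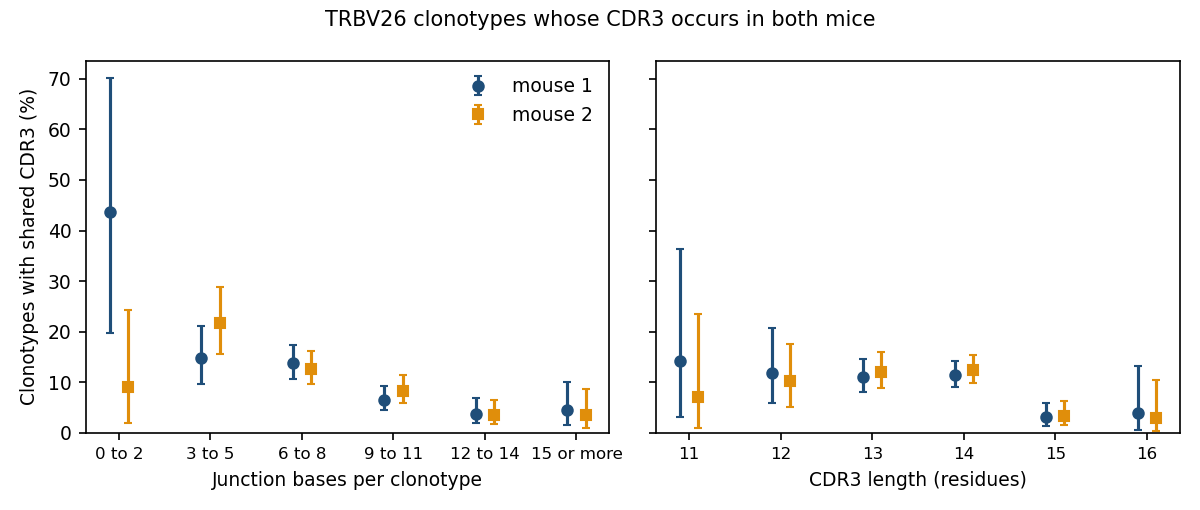
Percentage of TRBV26 clonotypes with a shared CDR3, by number of junction bases (left) and by CDR3 length from 11 to 16 residues (right), for mouse 1 (circles) and mouse 2 (squares), with exact 95% intervals. Above 8 junction bases and above 14 residues every value is under 10%.

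CDR3 length, counted here in residues and not in bases, differed less than the join. The mean was 13.6 residues in shared and 13.9 residues in private clonotypes, a difference of -0.31 in mouse 1 and -0.29 in mouse 2 (mean -0.297 ± 0.0150, SD, n = 2 mice), and the median was 14 in both classes. The difference lay at the long end. At 13 and 14 residues the percentage of clonotypes with a shared CDR3 was between 11.1% and 12.5%, while at 15 residues it was 3.14% in mouse 1 (interval 1.44 to 5.87) and 3.32% in mouse 2 (1.53 to 6.21). Of 17 clonotypes with 17 residues, 7 in mouse 1 and 10 in mouse 2, 0 were shared.

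Shared CDR3s used the TRBJ1 cluster, the group of J segments next to Trbd1, more often. TRBJ1 genes were found in 66.9% (interval 58.3 to 74.7) and 67.1% (58.7 to 74.8) of shared clonotypes, against 48.4% (45.7 to 51.1) and 46.7% (43.9 to 49.4) of private ones. TRBJ1-3 made up 18.4% and 19.3% of shared clonotypes against 11.3% and 9.41% of private ones. TRBJ1-1 made up 20.6% and 20% of shared clonotypes against 14.7% and 14.9% of private ones. A pair of J genes of the other cluster went the opposite way: TRBJ2-5 made up 2.21% and 2.14% of shared and 6.72% and 7.62% of private clonotypes, and TRBJ2-4 made up 3.68% and 2.86% of shared and 7.71% and 6.998% of private clonotypes. For single J genes the intervals of the classes overlapped, except for TRBJ1-3 and TRBJ2-5 in mouse 2.

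**Figure D3:**
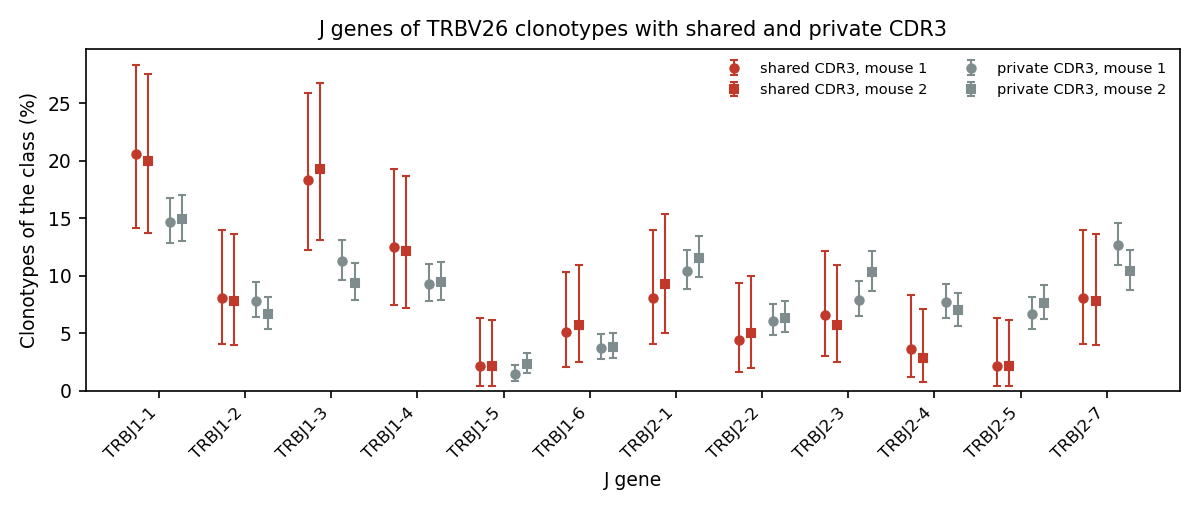
Percentage of TRBV26 clonotypes that use each J gene, for shared (red) and private (grey) CDR3s in mouse 1 (circles) and mouse 2 (squares), with exact 95% intervals. Shared values are higher for TRBJ1-1 and TRBJ1-3 and lower for TRBJ2-4 and TRBJ2-5 in both mice.

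The protein sequences of shared CDR3s stayed close to the germline stem. The first 4 residues were those encoded by Trbv26 in 118 of 119 shared CDR3s (99.2%), against 91.9% and 90.5% of private ones. At the fifth residue leucine was found in 55.5% of shared CDR3s (interval 46.1 to 64.6) against 47.6% and 46.8% of private ones, and arginine in 26.9% (19.2 to 35.8) against 20.3% and 19.1%. Glutamine was found there in 0 of 119 shared CDR3s, which allows up to 3.05%, and in 3.08% and 4.06% of private ones.

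Shared CDR3s also had more near neighbours. A different TRBV26 CDR3 that differed by 1 residue was present in the other mouse for 76.5% (interval 67.8 to 83.8) and 75.6% (66.9 to 83.0) of shared CDR3s, against 39.5% (36.8 to 42.3) and 42.4% (39.7 to 45.2) of private ones. The mean number of such neighbours was 2.64 and 2.43 per shared CDR3 and 0.812 and 0.839 per private CDR3. The same CDR3 also occurred in kept cells of another V gene for 10 of the 119 shared CDR3s (8.40%, interval 4.10 to 14.9), against 1.66% and 1.51% of private ones.

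Clone size did not separate the classes. Shared clonotypes had a mean of 1.51 cells in mouse 1 and 1.34 in mouse 2, and private clonotypes had 1.43 and 1.38, so the difference was 0.0730 in mouse 1 and -0.0430 in mouse 2, and its sign depended on the mouse. Clonotypes of 2 or more cells held 49.8% (interval 42.7 to 56.8) and 41.7% (34.6 to 49.1) of shared cells, and 44.9% (42.6 to 47.1) and 40.6% (38.3 to 42.9) of private cells, and the intervals overlap. The largest clonotypes differed more: they held 10 cells in each mouse in the shared class and 36 and 59 cells in the private class; the private class held many more clonotypes.

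Per possible pair of CDR3s, sharing by amino acids for TRBV26 was near that for TRBV23, the V gene with the next most CDR3s. Of the TRBV23 CDR3s, 18 were in both mice, 2.86% of 629 in mouse 1 and 3.60% of 500 in mouse 2. Since more pairs of CDR3s give more chances of a match, sharing was also set against the number of possible pairs between the mice. It was 62.4 shared CDR3s per 1000000 pairs for TRBV26 and 57.2 for TRBV23. The other 10 V genes with at least 50 CDR3s in each mouse had between 69.4 and 625, from 1 to 7 shared CDR3s each, and no test was made between V genes. These rates include CDR3s with a nucleotide sequence in both mice. Such sequences numbered 29 beside 119 shared CDR3s for TRBV26 and 8 beside 18 for TRBV23. For the other 10 V genes they numbered between 0 and 5.

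Gene expression was then compared between the classes, asking whether T cells with a shared CDR3 were in a different state. UMIs were summed over the cells of each class and mouse, and the 4 sums were tested with edgeR's quasi-likelihood F test with the mouse as a block. Of the transcripts that follow receptor signals, 5 were lower in shared cells, led by Nr4a1, and several transcripts of mitosis and those of Ifitm1 and Ifitm2 were higher. Of 11301 genes tested, 46 passed an adjusted p of 0.05 (0.407%), 26 higher (0.230%) and 20 lower (0.177%) in shared cells, and 681 (6.03%) had an unadjusted p under 0.05. The 46 include Tcrg-V6, a receptor segment gene of another chain, with 7 UMIs in shared cells of each mouse. The calls rest on a spread pooled across genes (62.5 prior degrees of freedom against 1 residual). Without the mouse block only Nr4a1 was called, and DESeq2 with the block called 3 genes, Nr4a1, Ifitm1 and Ifitm2. When 1 private cell was drawn for each shared cell with the same J gene and CDR3 length, where one existed, 53 genes were called, of which 25 were among the 46. This matching was drawn only once. It left 203 private cells of 1879 in mouse 1 and 187 of 1773 in mouse 2. The part of the draw and of the lower cell number in calls lost or turned by matching was not tested.

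Nr4a1 (ENSMUSG00000023034), an orphan nuclear receptor gene switched on within hours of T cell receptor signals, fell in shared cells. It had 19.7 CPM in mouse 1 and 14.3 CPM in mouse 2 in shared cells, against 62.6 and 60.9 CPM in private cells, and the classes did not overlap. The fitted log2 difference was -1.88 (SE 0.185, edgeR adjusted p = 2.32e-11). Its UMIs came from 12 of 205 and 15 of 187 shared cells and from 165 of 1879 and 165 of 1773 private cells. In shared cells these were 24 and 19 UMIs, so that each sum rests on few molecules, against 712 and 742 in private cells. Without the clonotype that gave the most Nr4a1 UMIs in each sum, the difference was -1.77 in mouse 1 and -2.12 in mouse 2. The gene was called in all 14 alternative fits, with log2 fold changes between -2.59 and -1.74 and adjusted p up to 0.0210.

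Other members of the 15 genes listed as responding to receptor signals went the same way. In total 0 rose, 5 fell and 10 did not pass the test, while 0.177% of all tested genes fell. Of the 15 fold changes 13 were below 0, against 5660 of all 11301 tested genes. The median log2 fold change was -0.29, against -0.00044 over all tested genes. Beside Nr4a1, the members that fell were its relatives Nr4a2 and Nr4a3 and the immediate early zinc finger genes Egr1 and Egr3. Nr4a2 had 9.84 and 6.79 CPM in shared cells against 22.5 and 20.9 CPM in private cells, or -1.40 on the log2 scale (SE 0.288, edgeR adjusted p = 0.00340). With private cells matched on J gene and CDR3 length Nr4a2 was at -0.04 (edgeR adjusted p = 0.995), and its call was also lost with 1 cell per clonotype (0.239) and with clonotypes of 1 cell (0.624). Egr1 had 84.5 and 64.2 CPM in shared cells against 118 and 145 CPM in private cells, or -0.84 on the log2 scale (SE 0.115, edgeR adjusted p = 1.11e-06). In mouse 1 alone it was -0.48 and in mouse 2 alone -1.17, and its call was lost with sharing by nucleotides (-0.39). Nr4a3 had 4.10 and 0 CPM in shared cells against 15.7 and 11.6 CPM in private cells. Egr3 had 2.46 and 3.77 CPM in shared cells, from 3 and 5 UMIs, against 11.9 and 10.3 CPM in private cells, and kept its call in 5 of 14 alternative fits. Of the members that did not pass, Egr2 had 32.0 and 37.7 CPM in shared cells against 49.6 and 50.5 CPM in private cells, and the activation marker Cd69 had 68.9 and 55.1 CPM in shared cells against 72.0 and 72.4 CPM in private cells. Some of these genes also respond to handling of tissue. Of 11 tested genes of a dissociation stress list, which shares members with this one, 0 were called, against 0.407% of all tested genes. In that list 9 fold changes were below 0. Its summed level was 2019 and 1952 CPM in shared cells against 2153 and 2093 CPM in private cells. The part of handling in the result was not tested.

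Further genes fell that are no members of that list. Tnfsf9, the ligand gene of the co-stimulatory receptor 4-1BB, had 12.3 and 6.79 CPM in shared cells against 25.5 and 18.6 CPM in private cells, and was called in 7 of 14 alternative fits. Hmox1, which encodes the haem-degrading enzyme haem oxygenase 1, had 7.38 and 8.30 CPM in shared cells against 23.2 and 23.2 CPM in private cells, or -1.57 on the log2 scale (SE 0.286, edgeR adjusted p = 4.22e-04). Both genes had classes that did not overlap. Without cells that held a UMI of another cell type's marker, an alternative chosen after the data were seen, the calls of both were lost. Hmox1 was then at -0.99 (edgeR adjusted p = 0.835) and Tnfsf9 at -1.15 (0.209). That alternative left 144 of 205 shared cells in mouse 1 and 111 of 187 in mouse 2. The part of the lower cell number in the lost calls was not tested. Of 16 Th1 genes 0 rose and 3 fell: the chemokine genes Ccl3 and Ccl5 and the surface marker gene Ly6c2. Over all tested genes 0.177% fell. The Th1 list had 9 fold changes above 0 and 7 below, with a median log2 fold change of 0.0055. Ccl3 had 184 and 37.7 CPM in shared cells against 206 and 253 CPM in private cells, so that nearly all of its log2 fold change of -1.12 (edgeR adjusted p = 9.96e-06) lay in mouse 2. Matched on J gene and CDR3 length, Ccl3 was at -0.03 (edgeR adjusted p = 0.992) and Ly6c2 at -0.72 (0.617), and both calls were lost. Ly6c2 had 7.38 and 23.4 CPM in shared cells against 37.7 and 43.3 CPM in private cells. Ccl5 had 7664 and 4674 CPM in shared cells against 8347 and 6289 CPM in private cells, and its sign turned when private cells were matched on J gene and CDR3 length (log2 fold change 0.23, edgeR adjusted p = 1.49e-05). The call of Ccl5 was lost with 1 cell per clonotype (-0.07) and without cells with other markers (-0.17). Penk, the proenkephalin gene and the only one of 14 Treg genes called, had 18.9 and 70.2 CPM in shared cells against 76.8 and 75.1 CPM in private cells, and fell mainly in mouse 1. Penk UMIs came from 6 and 5 shared cells, and its sign turned when only clonotypes of 1 cell were used (0.28).

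**Figure D4:**
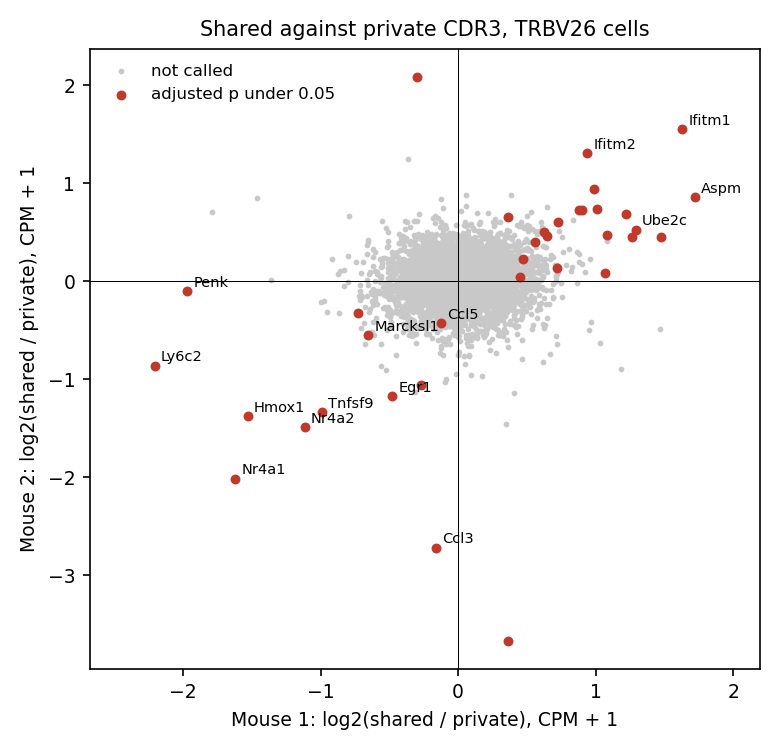
Each point is a gene with at least 20 CPM in 1 class, by the log2 ratio of shared to private CPM (1 CPM added) in mouse 1 (horizontal) and mouse 2 (vertical); red points had an edgeR adjusted p under 0.05. Nr4a1, Nr4a2, Hmox1 and Tnfsf9 lie low in both mice and Ifitm1 and Ifitm2 high in both, while Ccl3 moved in mouse 2 and Penk in mouse 1.

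Several genes of mitosis rose in shared cells, with larger differences in mouse 1 than in mouse 2. Of 16 proliferation genes 3 rose, Ube2c, Cenpf and Cdk1, 0 fell and 13 did not pass the test. Over all tested genes 0.230% rose. The proliferation list had 9 fold changes above 0 and 7 below, with a median log2 fold change of 0.12. Ube2c, an enzyme of the anaphase-promoting complex pathway, had 265 and 83.8 CPM in shared cells against 108 and 57.8 CPM in private cells (edgeR adjusted p = 2.89e-10). Its log2 fold change was 1.29 in mouse 1 and 0.53 in mouse 2. Cdk1, the kinase that drives entry into mitosis, had 92.7 and 40.8 CPM in shared cells against 49.8 and 24.3 CPM in private cells. Among called genes with at least 20 CPM in 1 class and 1 sign in the 2 mice, the 8 largest increases were Ifitm1, Ifitm2, Ube2c and 5 further genes of the mitotic spindle, centromere or mitotic entry, with log2 fold changes of 1.49 for Aspm, 1.14 for Cdkn3, 1.04 for Cenpf, 0.99 for Ccnb1 and 0.99 for Cenpe. The calls of Ccnb1, Cdkn3, Cenpe and Cenpf were lost with 1 cell per clonotype, and those of all 6 mitotic genes with sharing by nucleotides. Aspm had 43.5 and 13.6 CPM in shared cells against 12.5 and 7.06 CPM in private cells, and Cenpe had 64.0 and 28.7 CPM in shared cells against 31.8 and 14.5 CPM in private cells. In mouse 2 both shared values were below the shared values of mouse 1. Of the members that did not pass, Pcna, the clamp of DNA polymerases, had 75.4 and 77.0 CPM in shared cells against 92.3 and 76.7 CPM in private cells. Mki67, a marker of cycling cells, had 167 and 74.7 CPM in shared cells against 128 and 70.7 CPM in private cells and did not pass (edgeR adjusted p = 0.655). Few cells carried these transcripts. Cenpf UMIs came from 11 and 6 shared cells, and the clonotype with the most gave 52.6% of those in mouse 2. Without that clonotype in each sum, Cenpf differed by 1.07 in mouse 1 and -0.16 in mouse 2, and Ube2c by 1.120 and 0.14.

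Ifitm1 and Ifitm2, interferon-inducible genes of membrane proteins that restrict virus entry, had the smallest adjusted p among the increases. Ifitm1 had 123 and 352 CPM in shared cells against 39.1 and 119 CPM in private cells (log2 fold change 1.58, SE 0.0898, edgeR adjusted p = 4.27e-22). Ifitm2 had 75.4 and 150 CPM in shared cells against 38.9 and 60.1 CPM in private cells (1.17, SE 0.115, edgeR adjusted p = 2.32e-11). Matched on J gene and CDR3 length, Ifitm2 was at 0.25 (edgeR adjusted p = 0.864) and lost its call, while Ifitm1 was at 0.96 and kept it. Without the clonotype with the most Ifitm2 UMIs in each sum, which gave 46.7% of those of shared cells in mouse 1, Ifitm2 differed by 0.29 in mouse 1 and 0.81 in mouse 2. Within each mouse the shared value was the higher one, but the shared value of mouse 1 and the private value of mouse 2 were close for Ifitm1. All Ifitm1 UMIs of the shared class came from 5 cells in mouse 1 and 6 cells in mouse 2, with 44.0% and 34.5% of them from 1 clonotype. When sharing was defined by nucleotides, both genes turned, to -0.61 and -0.53, and were not called. Other interferon genes were not called: of 12 tested genes of the interferon list 0 passed, 5 had fold changes above 0 and 7 below. Of all tested genes 0.407% were called, so 0 of 12 is near that share.

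**Figure D5:**
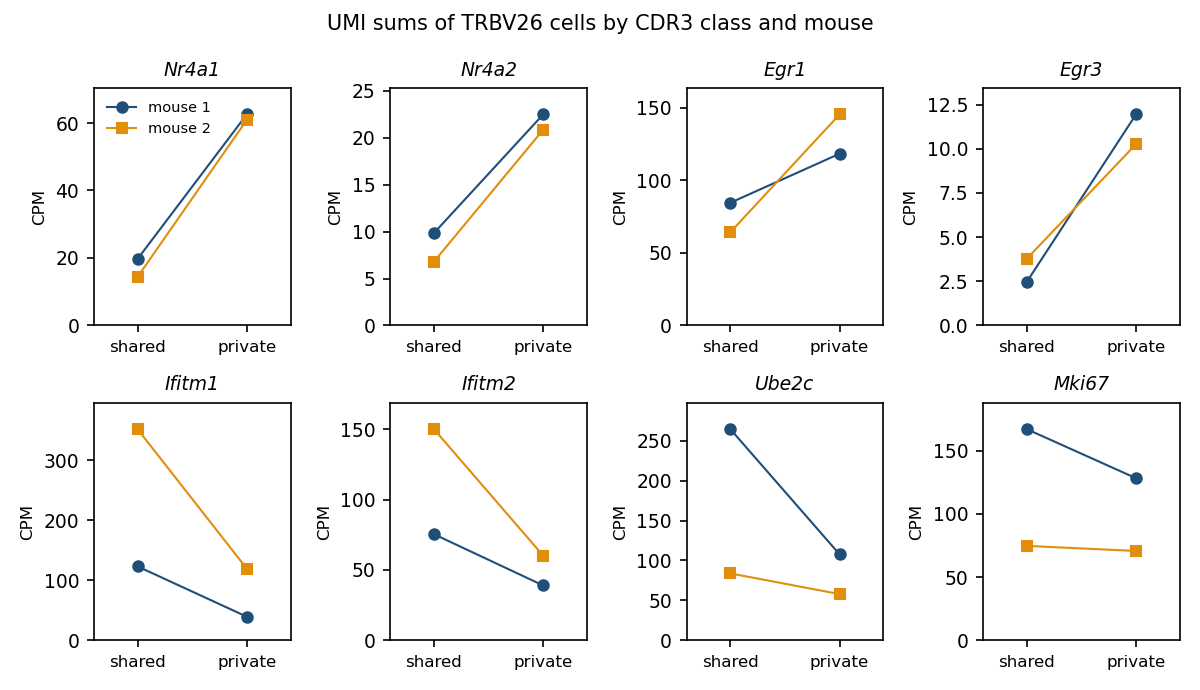
CPM of 8 genes in the UMI sums of TRBV26 cells with shared (left) and private (right) CDR3 for mouse 1 (circles) and mouse 2 (squares); each line joins the 2 classes of 1 mouse, and every axis starts at 0. Nr4a1, Nr4a2, Egr1 and Egr3 are lower and Ifitm1, Ifitm2 and Ube2c higher in shared cells of both mice, and Mki67 did not pass the test.

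Foxp3, the factor of regulatory T cells, had 45.1 and 115 CPM in shared cells against 60.5 and 87.5 CPM in private cells, with opposite signs in the 2 mice (log2 fold change 0.09, SE 0.125, edgeR adjusted p = 0.988). With sharing by nucleotides, from 46 shared cells in each mouse, Foxp3 was at 1.30 and called (edgeR adjusted p = 1.11e-04). Il2ra, the CD25 gene, had 17.2 and 34.0 CPM in shared cells against 19.6 and 31.9 CPM in private cells. Id3 had 348 and 211 CPM in shared cells against 315 and 303 CPM in private cells, and Tcf7, which encodes TCF1, had 618 and 568 CPM in shared cells against 572 and 656 CPM in private cells. Sostdc1 had 444 and 223 CPM in shared cells against 329 and 251 CPM in private cells, and the PD-1 gene Pdcd1 had 370 and 251 CPM in shared cells against 306 and 295 CPM in private cells. None of these 6 genes passed the test, with log2 fold changes between -0.18 and 0.15 and SEs from 0.0608 to 0.197, and Sostdc1 was called when matched on J gene and CDR3 length (0.36, edgeR adjusted p = 0.0465). The helper cytokine genes were called in no case. All 11 tested members had fold changes below 0, at a median of -0.25, against 5660 of all 11301 tested genes. Il21 had 108 and 80.0 CPM in shared cells against 122 and 98.2 CPM in private cells. Ifng had 125 and 61.9 CPM in shared cells against 124 and 92.5 CPM in private cells. The naive, cytotoxic, Th2, Th17, Tfh, exhaustion and homing lists each had 0 called genes, with medians between -0.07 and 0.24. The anergy list had 1, Egr3, at a median of -0.10. Of all tested genes 0.407% were called, so 0 calls in a list of this size is near that share.

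Whether the difference between shared and private CDR3s depended on the V gene was tested as an interaction with TRBV23, whose shared class held 29 and 27 cells. Of 10652 genes 0 passed (0%), and 503 had an unadjusted p under 0.05. For Nr4a1 the shared-to-private log2 difference in TRBV26 cells minus that in TRBV23 cells was -1.38 (SE 0.419, edgeR adjusted p = 0.760), and for Egr1 it was -1.07 (SE 0.346, edgeR adjusted p = 0.882). With no filter on low counts 17 genes passed.

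Most markers of other cell types were low in both classes. The B cell marker Ighm was not, with 75.9 and 164 CPM in shared cells of mouse 1 and mouse 2 against 116 and 133 CPM in private cells. The CD8 T cell marker Cd8b1 was higher in shared cells of both mice, with 15.5 and 15.02 CPM against 8.48 and 7.52 CPM in private cells. Neither gene was among the 46 called. Of the markers listed for 7 other cell types (platelets, red cells, dendritic and myeloid cells, and NK, B and CD8 T cells), Cd8a, Ncr1 and Pf4 were at 0 in all 4 sums. The 5 myeloid markers summed to 22.8 and 15.8 CPM in shared cells against 27.9 and 23.6 CPM in private cells, and the erythroid markers to 6.53 and 4.51 CPM in shared cells against 5.07 and 56.9 CPM in private cells. Genes of MHC class II, which mouse T cells hardly make, were lower in shared cells, with H2-Aa at 0.820 and 0.755 CPM, or 1 UMI in each mouse, against 21.3 and 7.96 CPM in private cells. The part of these markers in the calls of H2-Aa, H2-Eb1, H2-Ab1 and Hbb-bs was not tested. In private cells 1 clonotype gave 56.8% of the H2-Aa UMIs of mouse 1, and in mouse 2 the highest share was 13.4%. For Hbb-bs 1 private clonotype of mouse 2 gave 89.8% of 609 UMIs, and in mouse 1 the log2 difference was 0.36. Without cells that held a UMI of another cell type's marker, 144 and 111 shared cells and 1284 and 1128 private cells were left. In that fit 35 genes were called, 25 of them among the 46. Nr4a1 was called, and Hmox1, Egr3, Ccl5, Tnfsf9 and Penk were not.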

How the data were processed

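Cell Ranger 7.0.1 and the builds mm10 and GRCm38 are named in the submitters' processing notes. The deposited matrices hold UMI counts per gene and barcode, and the deposited contig tables hold UMI and read counts per contig with V gene, J gene and CDR3. Filters and classes are as described above. The kept cells held 38725969 and 44796902 UMIs. Germline ends came from GENCODE M21 transcripts, and a D match needed at least 5 bases. Sums of UMI counts per class and mouse were made without T cell receptor segment genes (symbols starting Tra, Trb, Trg or Trd; genes named Tcrg were not left out) and were tested with edgeR 4.0.16 (TMM, filterByExpr, quasi-likelihood F test, Benjamini-Hochberg over all genes, threshold 0.05), with DESeq2 1.42.0 as an alternative. The mouse was a block, since both classes come from the same animal. CPM were not scaled by TMM, which entered only the edgeR fits. For cell type markers and summed lists the total includes T cell receptor segment genes, and elsewhere it leaves them out. The fit was tested on simulated data. Doublets were limited by the rule of 1 TRB chain, and no caller was run.

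Named genes were the 8 largest changes each way among called genes that had 20 CPM or more in 1 class and 1 sign in the 2 mice, the member of smallest p in each T cell list, and the fixed genes Foxp3, Il2ra, Id3, Tcf7, Sostdc1, Il21, Pdcd1, Ifng, Ccl5 and Mki67; other genes were chosen after their values were seen. The members and lists were chosen with earlier results of these data known. In the main fit, with the mouse as a block, p-values set the class difference mostly against a spread pooled across genes. The disagreement between these 2 hosts entered with 1 residual degree of freedom. Several alternatives had infinite prior degrees of freedom, among them 1 cell per clonotype, matching on J gene and length, and leaving out cells with other markers. There a gene's own disagreement between the hosts had no weight. Nothing says that the hosts received cells of separate donors, so the p-values do not speak for other donors. Of the genes covered by the naming rule and the marker lists, 2 are not reported here.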

Additional observations from a re-analysis of the deposited data

How the results depend on the processing

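Defining sharing by nucleotides left 2.28% of TRBV26 cells shared, with differences, shared minus private, of -0.0875 residues, -1.30 junction bases and 0.182 cells per clonotype. Junction bases otherwise differed by -2.05 with at least 3 UMIs per TRB contig, where length differed by -0.31, by -1.96 without barcodes of both mice and by -1.97 at 1000 genes or more. In 1 mouse alone, the shared percentage was 9.54 to 9.84, length differed by -0.31 to -0.29, junction bases by -1.998 to -1.98, cells per clonotype by -0.0430 to 0.0730 and sequences per CDR3 by 0.110 to 0.153. The count of 46 called genes was 1 without the replicate block, 3 in DESeq2, 29 with 1 cell per clonotype (20 of them among the 46), 20 with clonotypes of 1 cell (12), 16 with sharing by nucleotides (5) and 23 without cells with 2 TRA chains (23). It was between 35 and 64 in the other alternatives, with 25 of the 46 called on matching J gene and length (53 called) and 25 without cells with other markers (35 called). The interaction with TRBV23 had 0 called genes without the block and with 1 cell per clonotype, and 17 with no filter on low counts. Signs turned for Ccl5 on matching J gene and length (0.23), for Cenpf (-0.17), Ifitm1 (-0.61) and Ifitm2 (-0.53) with sharing by nucleotides, and for Penk with clonotypes of 1 cell (0.28). Genes not called in the main comparison passed in single alternatives, among them Foxp3 (1.30, sharing by nucleotides), Sostdc1 (0.36, matched), Ccr8 (-0.95, matched) and Gzma (-2.89, 1 cell per clonotype), and Tnf in 2. The causes were not tested. Leaving out a mouse leaves 1 sum per class and no residual degree of freedom, so it gives values and no count. The shared sums hold 1225801 and 1331569 UMIs against 11435349 and 12236702 in the private class, so genes of few UMIs are limited by the shared class.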

Other observations

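Several called genes outside the groups above were chosen after their values were seen. Areg, which encodes the epidermal growth factor receptor ligand amphiregulin, had 3.28 and 5.28 CPM in shared cells against 14.6 and 15.7 CPM in private cells, and Marcksl1 had 77.1 and 75.5 CPM in shared cells against 122 and 111 CPM in private cells. Nfkbid, an atypical inhibitor of NF-κB, had 65.6 and 39.2 CPM in shared cells against 79.2 and 82.9 CPM in private cells. Csf1, the macrophage growth factor gene, had 93.5 and 64.2 CPM in shared cells against 44.0 and 60.5 CPM in private cells, so that the mice differed. The lamin gene Lmna had opposite signs, with 4.10 and 37.7 CPM in shared cells against 5.27 and 8.13 CPM in private cells. Of the 46 called genes, 44 kept their sign without the clonotype that gave the most UMIs in each sum, and 39 kept it in both mice. These genes were picked from the same sums and no such share was made over all genes, so the counts are no test of the calls.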
